A study of Mus musculus with 4 samples.

Results

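The genes described here are 39 genes of the red cell lineage: the minor globin genes, genes of the red cell membrane, nuclear regulators of red cell formation and genes of late reticulocytes. They were chosen by name, with earlier results of these data known. Each was read from the probe set annotated to that gene alone. Where a gene had several, the probe set of highest mean over all arrays was to be taken. Of the 39, 38 had such a probe set, and each of the 38 had 1, so that no choice between probe sets was needed. Epb41, which encodes the membrane skeleton protein 4.1, had none and is named only. The table as a whole gave 30758 genes measured in this way.

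Whole lung of adult mice matched for age was profiled on 4 Affymetrix expression arrays. The wild-type (WT) group held 2 arrays of lungs labelled C57/BL6, and the sickle cell disease group held 2 arrays of lungs labelled SCD Tg. The sources used here do not name the transgenic line, its globin alleles, the genetic background of the SCD mice, or the sex or exact age of the animals. The labels speak of 2 mouse lungs in each genetic group without tying each array to its own animal, and the p-values therefore measure only the spread between these arrays, which may be technical.

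Red cells form in the bone marrow, and in the mouse also in the spleen, from progenitors in which transcription factors such as GATA1, TAL1 and KLF1 switch on the globin, heme and membrane genes. The nucleus is then expelled, and the reticulocyte that enters the blood carries the remaining messenger RNA for a short time before it is degraded. Sickle cell disease is caused by a variant adult beta globin that polymerises when deoxygenated, which shortens the life of red cells and is accompanied by a raised reticulocyte count. The labels do not say whether the lungs were flushed of blood. In such bulk samples, more cells of a type and more RNA per cell cannot be told apart.

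Levels are deposited log2 expression values, and differences are SCD minus WT on that scale with the moderated standard error (SE) from limma and n = 2 arrays per group. Adjusted p-values are Benjamini-Hochberg values over all 30758 genes, with a threshold of 0.05. Below, "rose" is used of genes past that threshold. The array also carries intron controls, probe sets placed in introns, whose median gives a mark for dim signal. That median was 6.48 and 6.47 in WT and 6.31 and 6.27 in SCD lung, while the exon controls were shifted upward in SCD lung by 0.20. The lung epithelial markers Sftpc and Scgb1a1 were at 19.93 on all 4 arrays, and the endothelial marker Cdh5 read between 14.83 and 15.39, all far above the intron controls.

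The globin genes carry the largest differences among the members, and the DNA before their start sites is shown first to set the near-identical theta globin pair beside genes that did and did not rise. The mouse alpha cluster on chromosome 11 runs in the order Hba-x, Hba-a1, Hbq1b, Hba-a2, Hbq1a. The 250 bases before the annotated start were taken from RefSeq (build GRCm38.p6) and are written 5′ to 3′ on the strand of the gene. In the theta globin pair, capitals mark the bases at which the sequences differ.
Hbq1a (chr11:32299819-32300068, plus strand): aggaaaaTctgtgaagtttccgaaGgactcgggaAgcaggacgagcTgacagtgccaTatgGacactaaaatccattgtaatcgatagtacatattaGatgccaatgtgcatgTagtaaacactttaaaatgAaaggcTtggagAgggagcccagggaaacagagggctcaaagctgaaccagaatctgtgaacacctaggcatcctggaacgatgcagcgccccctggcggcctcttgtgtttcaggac
Hbq1b (chr11:32286714-32286963, plus strand): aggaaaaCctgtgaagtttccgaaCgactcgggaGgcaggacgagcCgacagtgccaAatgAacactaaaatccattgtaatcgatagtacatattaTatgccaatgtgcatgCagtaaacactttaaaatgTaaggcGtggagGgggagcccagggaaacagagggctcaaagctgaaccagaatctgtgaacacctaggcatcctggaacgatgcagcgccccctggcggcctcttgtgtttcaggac
In the embryonic globin genes and in Rhag, a membrane gene that rose, capitals mark on either strand the word AGATAA, the word AGATAG, the word TGATAA or the word TGATAG, which GATA factors can bind, and the word CCNCNCCC on either strand, a CACCC box of the kind that KLF1 can bind.
Hba-x (chr11:32276350-32276599, plus strand): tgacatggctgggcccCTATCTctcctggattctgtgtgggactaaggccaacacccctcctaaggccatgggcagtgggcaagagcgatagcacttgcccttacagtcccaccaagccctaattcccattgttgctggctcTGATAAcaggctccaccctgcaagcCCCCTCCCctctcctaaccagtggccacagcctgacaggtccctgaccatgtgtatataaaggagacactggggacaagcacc
Hbb-y (chr7:103853208-103853457, minus strand): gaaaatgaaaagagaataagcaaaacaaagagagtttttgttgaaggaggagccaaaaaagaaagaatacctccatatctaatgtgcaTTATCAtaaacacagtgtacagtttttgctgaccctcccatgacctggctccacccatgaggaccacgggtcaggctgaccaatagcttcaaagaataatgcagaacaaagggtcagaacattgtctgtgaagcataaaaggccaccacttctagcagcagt
Rhag (chr17:40810899-40811148, plus strand): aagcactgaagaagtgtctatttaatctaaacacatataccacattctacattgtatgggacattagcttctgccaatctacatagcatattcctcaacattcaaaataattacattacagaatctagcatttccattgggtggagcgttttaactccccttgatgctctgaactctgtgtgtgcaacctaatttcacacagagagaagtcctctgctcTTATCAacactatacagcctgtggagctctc
The theta globin windows were identical at 239 of 250 bases (95.6%), with 11 mismatches and no gap, and neither window held a GATA word or a CACCC word. Hba-x held 2 GATA words and 1 CACCC word, which here means a match to CCNCNCCC. Hbb-y and Rhag held 1 GATA word each and no match to CCNCNCCC. The shorter letters CACCC were not searched for, and they stand unmarked in Hba-x, in Hbb-y and, on the other strand, in Rhag.

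Across the 38 measured members, 8 rose in SCD lung, 0 fell and 30 did not pass. These 8 make up 21.1% of the members, against 2.46% of all genes that rose, 0.64% that fell and 3.1% called in either direction. The shares describe a list chosen with earlier results of these data known and are not a test of it. The 8 were Hbq1a, Hba-x, Car1, Slc25a37, Mkrn1, Rhag, Bpgm and Slc4a1. The median difference of the members was 0.25, that of all genes 0.0019, and 31 of 38 members had a difference above 0, as did 50.3% of all genes. Both SCD arrays lay above both WT arrays for 22 of 38 members (57.9%), against 25.3% of all genes, and below them for 3 members (Epor, Tal1 and Abcb10), against 22.5% of all genes. At an unadjusted p under 0.05, limma listed 15 members, all with a difference above 0, against 16.7% of all genes in either direction.

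**Figure D1:**
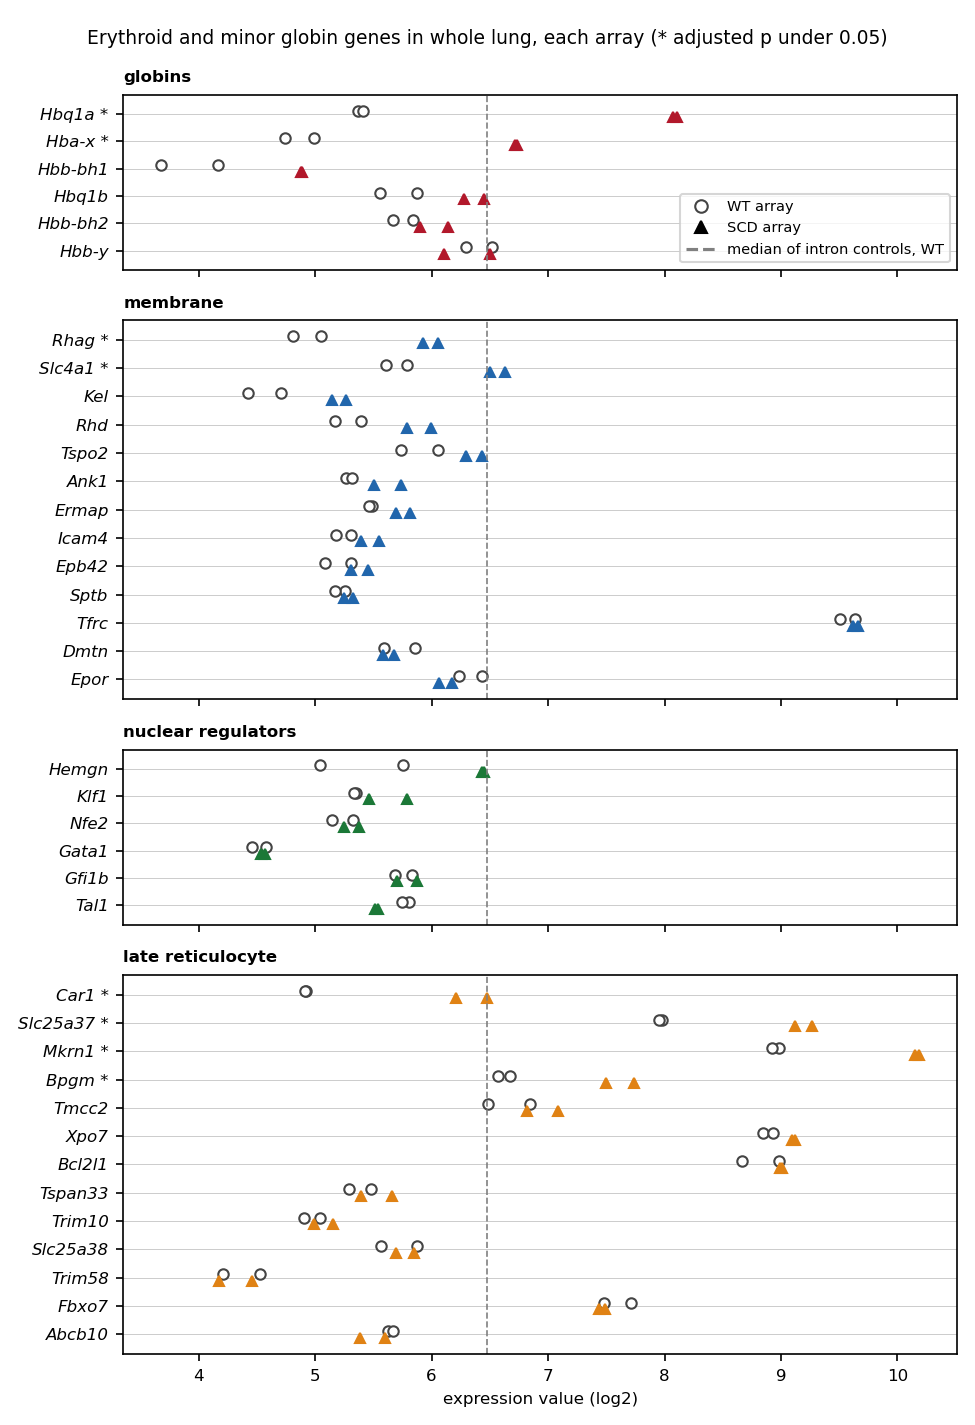
Expression value (log2, horizontal axis) of each measured member on the 2 WT arrays (open circles) and the 2 SCD arrays (filled triangles), by role, with genes ordered by their difference and the WT intron control median as a dashed line. The triangles of Hbq1a (8.10 and 8.07) and Hba-x (6.73 and 6.71) stand far to the right of their circles, while those of Gata1 lie between its circles.

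Among the globin genes, Hbq1a and Hba-x rose and the other 4 did not pass. Hbq1a, a theta globin gene whose product has no settled function, read 5.37 and 5.41 in WT and 8.10 and 8.07 in SCD lung. Its difference was 2.70 ± 0.10 (6.48-fold; limma adjusted p = 0.00275), rank 23 from the top among 30758 genes. The arrays of each group lay within 0.05 of each other, so that the gap between groups far exceeded the spread within them. Hba-x, the embryonic zeta chain of the alpha cluster, read 4.99 and 4.74 in WT and 6.73 and 6.71 in SCD lung. It rose by 1.86 ± 0.13 (3.62-fold; limma adjusted p = 0.00788), and the groups did not overlap.

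The other theta globin gene, Hbq1b, lies between the adult alpha genes and read 5.56 and 5.88 in WT and 6.45 and 6.28 in SCD lung. Its difference of 0.65 ± 0.15 did not pass (limma adjusted p = 0.122), although both SCD arrays were above both WT arrays. On each array, Hbq1a minus Hbq1b was -0.19 and -0.46 in WT and 1.66 and 1.80 in SCD lung. This within-array difference was 2.05 higher in SCD lung, and its groups did not overlap. A two-sided exact permutation test over the 4 arrays gave p = 0.333, which is the smallest this design allows. How far the probe set of one theta globin gene also reads the other was not tested, and both values are uncertain to that extent.

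Of the beta cluster, Hbb-bh1, an embryonic beta-like chain, read 3.68 and 4.16 in WT and 4.88 and 4.89 in SCD lung. Its difference of 0.96 ± 0.19 did not pass (limma adjusted p = 0.0813). Both SCD arrays lay above both WT arrays, and the WT arrays were further apart than the SCD arrays. Hbb-bh2, a further beta-like gene, read 5.67 and 5.84 in WT and 6.14 and 5.90 in SCD lung (difference 0.26 ± 0.14). Hbb-y, the embryonic epsilon-like chain, read 6.52 and 6.29 in WT and 6.11 and 6.50 in SCD lung, with groups that overlapped and a difference of -0.10 ± 0.18. Of the embryonic chains, Hba-x passed the threshold and Hbb-bh1 and Hbb-y did not, and whether their differences differ was not tested.

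All 6 globin genes had WT means below the median of the intron controls, and 4 of them (Hba-x, Hbb-y, Hbq1a and Hbq1b) had SCD means above it. The adult alpha genes Hba-a1 and Hba-a2 share their probe sets, which read 18.99 and 19.79 on every array. The adult beta genes Hbb-bs and Hbb-bt share theirs, which read 19.22 and 15.09 on every array. A value identical to the last deposited digit on all 4 arrays gives no direction for adult globin, and the sickle globin of the SCD mice could not be checked from these probe sets.

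**Figure D2:**
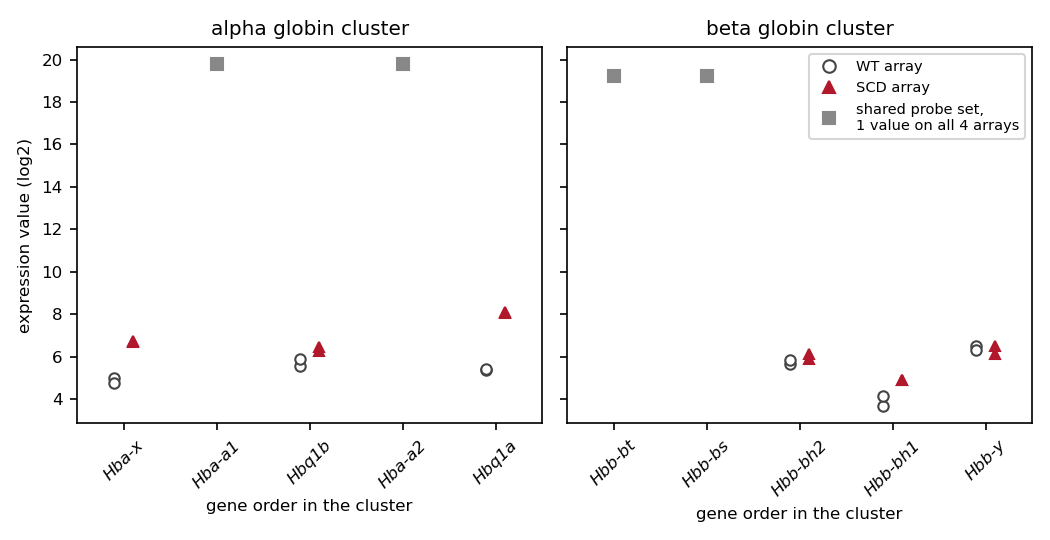
Expression value (log2, vertical axis) of the globin genes in their order along the alpha cluster (left) and the beta cluster (right), with WT arrays as open circles, SCD arrays as triangles and, for the adult genes, the brighter shared probe set as a square. The squares at 19.79 and 19.22 are 1 value for all 4 arrays, and Hbq1a and Hba-x, at the ends of the alpha cluster, show the widest gaps between circles and triangles.

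Among the membrane genes, 13 were measured, of which 2 rose and 11 did not pass, with a median difference of 0.28. Rhag, the Rh-associated glycoprotein that carries the Rh complex to the membrane, read 5.05 and 4.81 in WT and 6.06 and 5.93 in SCD lung. It rose by 1.06 ± 0.14 (2.08-fold; limma adjusted p = 0.0278). Slc4a1, the band 3 anion exchanger and the anchor of the membrane skeleton, read 5.61 and 5.79 in WT and 6.50 and 6.63 in SCD lung. It rose by 0.87 ± 0.12 (1.82-fold; limma adjusted p = 0.0369). The groups did not overlap for either gene, and both had WT means below the intron controls. In SCD lung, the mean of Slc4a1 was 6.56 and exceeded these controls. That of Rhag was 5.99 and did not, so Rhag was dim in both groups. Slc4a1 was the 1 member to miss the threshold when the shift of the exon controls was taken off the SCD arrays (0.67, limma adjusted p = 0.0628).

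Other genes of the Rh and Kell blood groups lay close behind without passing. Rhd, the Rh protein partner of Rhag, read 5.17 and 5.39 in WT and 5.998 and 5.79 in SCD lung (difference 0.61 ± 0.14; limma adjusted p = 0.116). Kel, an endopeptidase that carries the Kell antigens in humans, read 4.70 and 4.43 in WT and 5.27 and 5.14 in SCD lung (difference 0.64 ± 0.15; limma adjusted p = 0.113). For both genes the SCD arrays stood above the WT arrays by more than the gap within either group. Tspo2, an erythroid member of the translocator protein family, had a difference of 0.47 ± 0.15, with 6.06 and 5.74 in WT and 6.30 and 6.44 in SCD lung. Ermap, an immunoglobulin-like protein of erythroblasts, and Icam4, an adhesion molecule of erythroblasts, had differences of 0.28 ± 0.11 and 0.23 ± 0.13.

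None of the measured membrane skeleton genes passed. Ank1, the ankyrin that ties spectrin to band 3, read 5.26 and 5.31 in WT and 5.51 and 5.74 in SCD lung (difference 0.33 ± 0.13; limma adjusted p = 0.298). Differences were 0.18 ± 0.14 for Epb42 (protein 4.2), 0.07 ± 0.11 for Sptb (beta spectrin) and -0.09 ± 0.14 for Dmtn (dematin, which bundles actin). The WT and SCD arrays overlapped for Sptb and Dmtn. Among the receptors, Tfrc, the transferrin receptor through which erythroblasts take up iron and which other growing cells also carry, read 9.51 and 9.64 in WT and 9.61 and 9.66 in SCD lung, with groups that overlapped. Its difference was 0.06 ± 0.10. Epor, the erythropoietin receptor of erythroid progenitors, read 6.43 and 6.23 in WT and 6.18 and 6.07 in SCD lung, with both SCD arrays lower (difference -0.21 ± 0.13; limma adjusted p = 0.492).

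Among the 6 nuclear regulators, 0 passed in limma, with 1 (Hemgn) at an unadjusted p under 0.05, and the median difference was 0.06. Over all genes, 2.46% rose and 16.7% had an unadjusted p under 0.05 in limma. Counts of 0 and 1 among 6 genes therefore do not set this role apart from all genes. Gata1, the master regulator of erythroid genes and also active in megakaryocytes and mast cells, read 4.58 and 4.46 in WT and 4.57 and 4.53 in SCD lung (difference 0.03 ± 0.12). Klf1, the erythroid factor that activates adult beta globin, read 5.35 and 5.34 in WT and 5.46 and 5.79 in SCD lung (difference 0.28 ± 0.15; limma adjusted p = 0.434). The SCD arrays of Klf1 differed from each other by more than the lower of them differed from WT, while those of Gata1 lay between the WT arrays.

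Nfe2, a factor of erythroid cells and megakaryocytes, and Gfi1b, a repressor of both lineages, had differences of 0.08 ± 0.13 and 0.03 ± 0.13 with overlapping groups. Tal1, a partner of GATA1, read 5.80 and 5.74 in WT and 5.54 and 5.51 in SCD lung, lower on both SCD arrays without passing (difference -0.25 ± 0.11; limma adjusted p = 0.352). Hemgn, a nuclear protein of developing red cells, stood apart with 5.75 and 5.04 in WT and 6.43 and 6.45 in SCD lung. Its difference of 1.04 ± 0.25 was of the size of that of Rhag, but the WT arrays were 0.72 apart and it did not pass (limma adjusted p = 0.122). The difference of Hemgn was 1.40 without WT replicate 1 and 0.69 without WT replicate 2, the widest range that leaving out 1 array gave. Every one of these 6 genes had a WT mean below the intron controls. Hemgn was the 1 whose SCD mean (6.44) lay above the intron controls of the SCD arrays (6.29), though not above those of the WT arrays (6.48).

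The late reticulocyte genes gave 4 of the 8 increases: 4 of 13 rose and 9 did not pass, with a median difference of 0.17. Car1, a carbonic anhydrase abundant in red cells, read 4.92 and 4.91 in WT and 6.47 and 6.21 in SCD lung. It rose by 1.42 ± 0.13 (2.68-fold; limma adjusted p = 0.0114). Slc25a37, or mitoferrin-1, which brings iron into the mitochondria of erythroid cells for heme synthesis, read 7.98 and 7.95 in WT and 9.27 and 9.12 in SCD lung. The increase of Slc25a37 was 1.23 ± 0.10 (2.34-fold; limma adjusted p = 0.00871), and for both genes the WT arrays were nearly equal and the SCD arrays clear of them.

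Mkrn1, a ubiquitin ligase gene expressed widely and abundant in reticulocytes, read 8.99 and 8.92 in WT and 10.19 and 10.15 in SCD lung. It rose by 1.21 ± 0.09 (2.32-fold; limma adjusted p = 0.00788), the smallest SE among the 38 members. Bpgm makes 2,3-bisphosphoglycerate, which lowers the oxygen affinity of hemoglobin. It read 6.67 and 6.57 in WT and 7.74 and 7.50 in SCD lung and rose by 1.00 ± 0.13 (2.00-fold; limma adjusted p = 0.0277). Slc25a37, Mkrn1 and Bpgm were the 3 risen members whose WT means lay above the intron controls.

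The other late reticulocyte genes differed by at most 0.29 in either direction. Tmcc2 was at 0.29 ± 0.17, Xpo7, an exportin involved in nuclear condensation, at 0.22 ± 0.09, and Bcl2l1, which encodes the survival protein Bcl-xL, at 0.17 ± 0.13. Xpo7 read 8.85 and 8.93 in WT and 9.12 and 9.10 in SCD lung, and Bcl2l1 read 8.67 and 8.99 in WT and 8.99 and 9.01 in SCD lung, with both SCD arrays above both WT arrays for each gene, by a narrow margin for Bcl2l1. Tspan33, a tetraspanin, Trim10, a protein of terminal erythroid maturation, and Slc25a38, a mitochondrial glycine carrier for heme synthesis, had differences of 0.14 ± 0.15, 0.10 ± 0.13 and 0.05 ± 0.15. Trim58, a ubiquitin ligase of late erythroblasts, Fbxo7, a ubiquitin ligase subunit, and Abcb10, a mitochondrial transporter, had differences of -0.05 ± 0.18, -0.13 ± 0.12 and -0.15 ± 0.13. The groups overlapped for Tmcc2, Tspan33, Trim10, Slc25a38, Trim58 and Fbxo7.

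**Figure D3:**
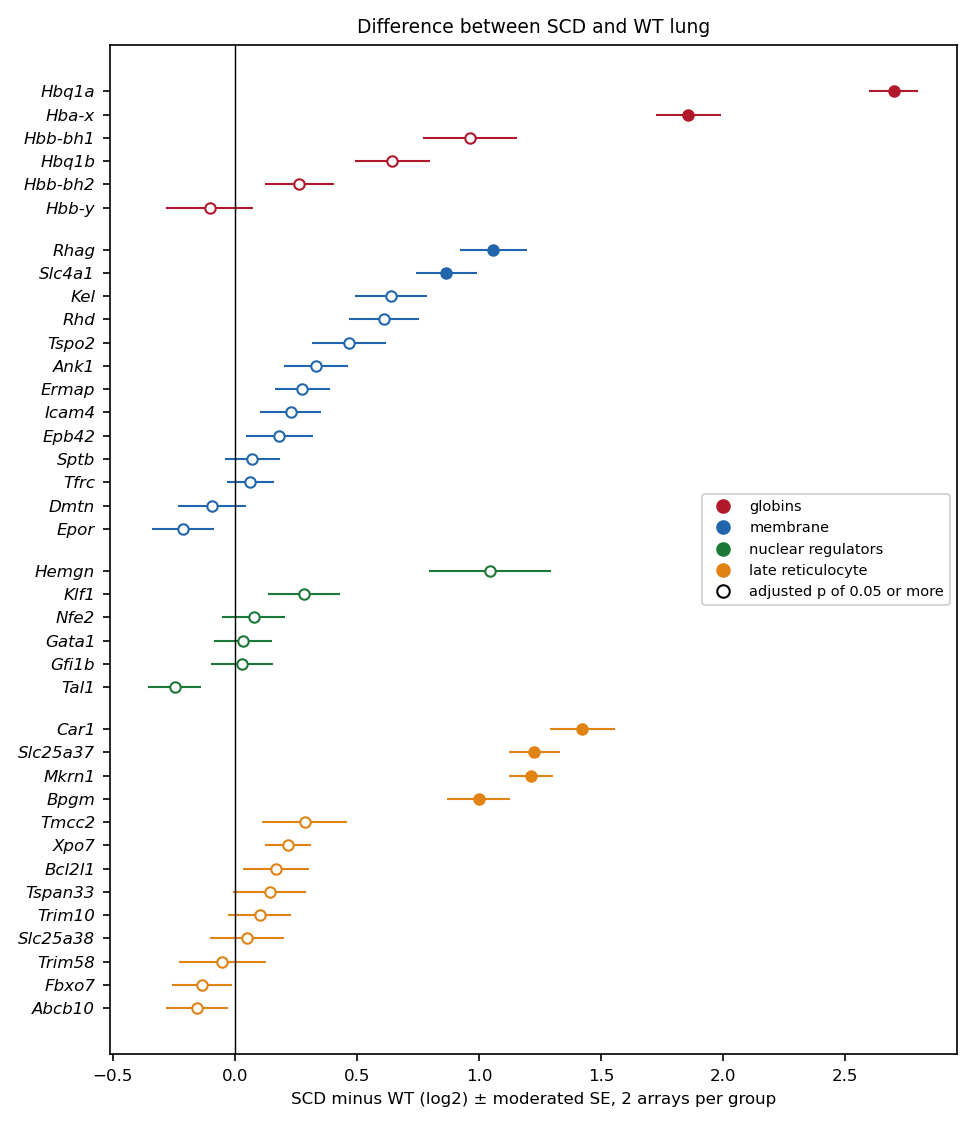
Difference SCD minus WT (log2, horizontal axis) of each measured member with the moderated SE as a bar, by role, filled where the limma adjusted p was under 0.05 and open otherwise. The 8 filled points run from 0.87 (Slc4a1) to 2.70 (Hbq1a), none of them among the nuclear regulators, and open points reach from -0.25 (Tal1) to 1.04 (Hemgn).

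Most members were dim in WT lung. Of the 38, 30 had a WT mean at or below the intron control median, and 5 of these 30 rose, against 0.768% of the 18366 genes as dim. Of the 8 brighter members, 3 rose, against 4.96% of the 12392 brighter genes. On the SCD arrays, 16 of 38 members had means above the intron control median of those arrays, as did 13389 of all 30758 genes. That median was lower than in WT lung (6.29 against 6.48), so the 2 counts of brighter members use different marks. The SCD arrays did not differ in one direction among the members, since replicate 1 was above replicate 2 for 20 of 38. Among the 8 risen members, the SCD arrays differed from each other by at most 0.26 (Car1) and the WT arrays by at most 0.25 (Hba-x). Narrow gaps within groups favour a call, so these gaps are no separate support for the 8.

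**Figure D4:**
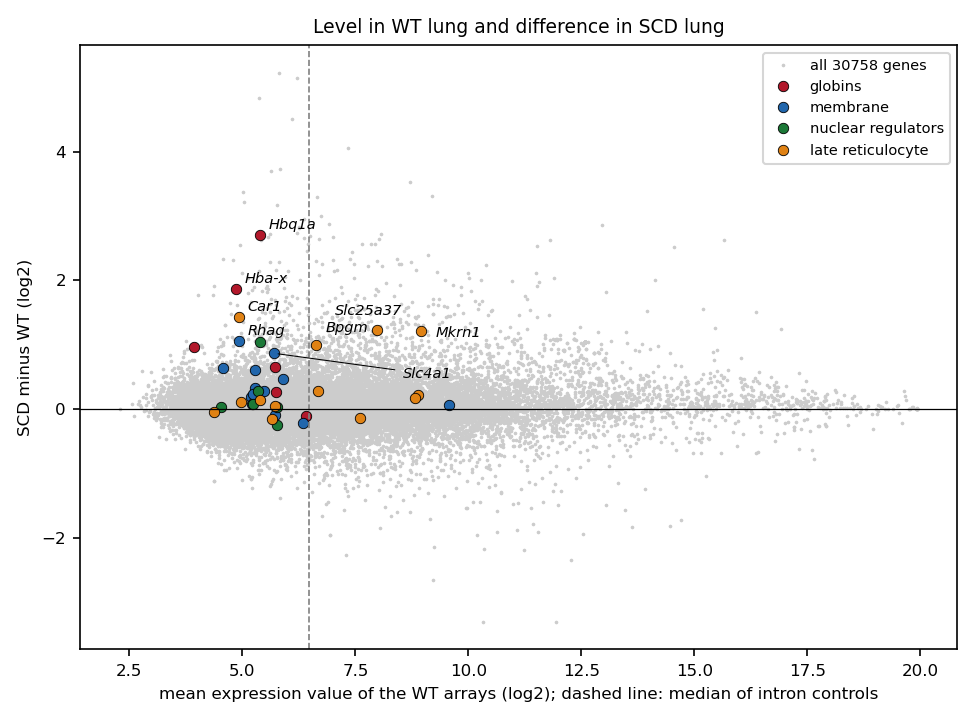
Mean level of the WT arrays (log2, horizontal axis) against the difference SCD minus WT (log2, vertical axis) for all 30758 genes (grey) and the 38 members (coloured by role), with the WT intron control median as a dashed line and the 8 risen members named. Slc25a37, Mkrn1 and Bpgm lie to the right of the line, and Hbq1a, Hba-x, Car1, Rhag and Slc4a1 to its left.

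Promoter windows of RefSeq were at hand for 30 of the 38 measured members. A GATA word stood in the 250 bases before a start of 18 of the 30 (60.0%), against 26.9% of 18229 tested genes with a window. A CACCC word (a match to CCNCNCCC) stood in 16 of the 30 (53.3%), against 54.8%, and both words in 6 of the 30 (20.0%), against 9.61%. Counted by window, since some genes have several, 18 of 38 windows (47.4%) held a GATA word, against 23.6% of 22188. Among the 5 risen members with a window, Hba-x and Rhag held a GATA word and Hbq1a, Bpgm and Mkrn1 did not. Among the 25 members that did not pass, 16 held one. A match describes these letters and is neither a site nor a cause.

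Further red cell genes outside the members were read for comparison, in lists chosen by name with earlier results of these data known. Of 59 listed genes, 52 were measured, of which 6 rose (11.5%, against 2.46% of all genes), 0 fell and 46 did not pass. The median difference of the 52 was 0.22. Of 8 measured enzymes of heme synthesis, 3 rose: Alas2, the erythroid enzyme of the first step, by 3.52 ± 0.10 (8.62 and 8.80 in WT and 12.18 and 12.29 in SCD lung), Fech, which inserts iron, by 2.21 ± 0.10, and Alas1, the form of the first enzyme found in all tissues, by 1.21 ± 0.08. The 5 other enzymes (Alad, Uros, Urod, Cpox and Ppox) had differences from -0.22 to 0.12. In the list of red cell cytosol and maturation, 3 of 17 rose, namely Ncoa4, the cargo receptor for ferritin turnover, by 1.35 ± 0.09, Ube2o, which tags proteins for removal in reticulocytes, by 1.09 ± 0.15, and Isg20, an exonuclease, by 0.82 ± 0.11. Of 17 other red cell membrane genes and of 10 other erythroid transcription regulators, 0 passed in limma in either list. At an unadjusted p under 0.05, limma listed 7 and 3 of them, against 16.7% of all genes.

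Some markers of other blood cells also rose, and most platelet, mast cell and basophil markers did not pass. In these lists only Kit fell, and which lung cells give the Kit signal was not tested. Over all genes, 2.46% rose, 0.64% fell and 16.7% had an unadjusted p under 0.05 in limma. Of 9 measured platelet and megakaryocyte markers, 3 rose, namely Ppbp by 3.31 ± 0.19, Pf4 by 1.13 ± 0.15 and Tubb1 by 0.73 ± 0.11, while Itga2b differed by 0.02 ± 0.11. On the log2 scale, the summed level of this list was 10.63 and 10.79 in WT and 12.86 on both arrays of SCD lung. Of 12 neutrophil markers, 7 rose, among them S100a8 by 2.62 ± 0.16, S100a9 by 2.51 ± 0.11, Ltf by 1.67 ± 0.11 and Csf3r by 1.10 ± 0.10, and the summed level went from 16.07 and 16.47 in WT to 18.75 and 18.91 in SCD lung. In the mast cell and basophil list, Kit fell by 2.18 ± 0.09 and the other 11 did not pass, Hdc being at 1.15 ± 0.20. The summed level was 10.90 and 10.99 in WT and 10.34 and 10.35 in SCD lung. Kit alone read 10.31 and 10.36 in WT and 8.17 and 8.15 in SCD lung and made up most of the WT sum. The lower sum therefore does not describe the list, in which 8 of 12 differences were above 0 (median 0.08). Of 9 endothelial markers, 2 fell, where Tek fell by 1.94 ± 0.08 and Cdh5 fell by 0.47 ± 0.08, with a summed level of 15.81 and 15.98 in WT and 15.49 and 15.53 in SCD lung. Among 11 proliferation markers 0 passed in limma, with 1 at an unadjusted p under 0.05, and Mki67 was at 0.44 ± 0.10 and Top2a at 0.04 ± 0.10. Of 9 lung epithelial markers 0 passed in limma, with 2 at an unadjusted p under 0.05; Sftpc and Scgb1a1, each at 1 identical value on all 4 arrays, could show no change. The part of these other cells in the results for the members was not tested. Many of these markers were dim. WT means were not above the intron controls for 9 of 12 mast cell and basophil, 8 of 11 proliferation and 6 of 12 neutrophil markers. The same held for 5 of 9 platelet and megakaryocyte, 1 of 9 lung epithelial and 0 of 9 endothelial markers.

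In limma without SCD replicate 1 or without SCD replicate 2, 0 members and 0 of all genes passed, with 14 and 13 members at an unadjusted p under 0.05, and without WT replicate 1 or WT replicate 2, 5 and 4 members passed. With any 1 array left out, the 8 risen members had differences from 0.78 (Slc4a1) to 2.72 (Hbq1a), a range across genes. With 2 arrays per group, how far a difference moves is set by the gap within the group. That gap also entered the calls, so the small movement of the 8 is no separate support. Hbq1a, Hba-x, Mkrn1 and Slc25a37 passed without either WT array, and Car1, Bpgm, Rhag and Slc4a1 passed in none of these 4 fits. Hemgn, which is not among the 8, also passed without WT replicate 1.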

How the data were processed

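Expression was measured in whole lung of mice on 4 Affymetrix arrays, 2 labelled WT and 2 labelled SCD, with groups taken from the sample titles. Each array has a column of deposited log2 values, a scale taken from their range of 1.72 to 19.93. The submitters' processing notes name RMA, a robust average over the probes of a set, with Partek and the Affymetrix Expression Console, and give neither version nor role. The table held 72688 probe sets, 6732 of them controls. Platform annotation, whose older symbols were brought up to date by Entrez ID in RefSeq (GRCm38.p6; Epb42 was reached in this way), paired 31232 probe sets with 1 gene, which gave 30758 genes with the probe set of highest mean as each gene's value.

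The groups were compared by limma 3.58.1 under R 4.3.3 (lmFit and eBayes with an intensity trend, group as the only term, two-sided, Benjamini-Hochberg over all genes, threshold 0.05, no filter on dim probe sets). In 3 simulations of this design over 30758 genes, 23.7% of true log2 changes of 1 and 89.3% of true changes of 2 were called, with at most 6 false calls. The simulations changed far fewer genes than were called in the data, all upward, with noise independent between genes. The share recovered depends on how many genes change, so these shares do not carry over to the data. Precision is limited by the number of arrays. Promoter windows were searched and compared with Python 3.11.15 and Biopython 1.88.

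The members, lists and alternatives were chosen with earlier results of these data known. Named genes are all members, the genes past the threshold in each other list (up to 4 by smallest p), Alas2 and Fech, and the 2 markers of each list brightest in WT lung; Alad, Uros, Urod, Cpox, Ppox and Itga2b were named after their values were seen. Alternatives tried were a fit blocked on replicate number, robust eBayes, array weights, a variance prior without trend, 2 filters on dim genes, the mean of probe sets, 4 changes of scaling, 2 restrictions of the genes tested, 2 other thresholds and each array left out in turn.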

Additional observations from a re-analysis of the deposited data

How the results depend on the processing

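The count of 8 risen members was 8 with the replicate number as a block, without the intensity trend, with robust eBayes, array weights, the dimmest 25% of genes left out, cyclic loess, equal array medians, repeated quantile normalization and without genes of 1 identical value. It was also 8 with the mean of probe sets, which could not change the members' own values, since each had 1 probe set. It was 7 with the exon control shift removed, 9 over protein-coding genes alone (where Hbb-bh1 passed as well), 5 without the dimmest 50% of genes (where 16 members were tested), 4 at an adjusted p threshold of 0.01 and 9 at 0.1, and 0 members fell under any of these. With 1 array left out it ranged from 0 to 5, where the lone array of a group is assumed to vary like the other group. In those fits the other red cell genes gave 0 to 4 increases, and all genes gave 0 to 628 increases and 0 to 142 decreases; without SCD replicate 1 or 2, 0 genes passed although 3303 and 3273 had an unadjusted p under 0.05. Over all genes, where 756 rose and 197 fell, limma gave 116 decreases without the intensity trend, 320 without the dimmest 50% of genes and 320 over protein-coding genes, 348 after repeated quantile normalization and 570 with the exon control shift removed. At thresholds of 0.01 and 0.1 it gave 243 and 1282 increases with 38 and 472 decreases. The share of calls that were higher was 79.3%, against 64.3% after repeated quantile normalization and 47.5% with the exon control shift removed. Among the other red cell genes, 11 rose over protein-coding genes alone, against 6, and 1 fell after repeated quantile normalization.

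Removal of the exon control shift takes 0.20 off every difference, so that the median of all genes was -0.19 and that of the members 0.05 and the distance between them could not change. By the same construction, members with small differences above 0, none of which had passed, came to lie below 0: Epb42 at -0.013, Sptb at -0.12, Tfrc at -0.13, Gata1 at -0.16, Nfe2 at -0.12, Gfi1b at -0.17, Trim10 at -0.094, Tspan33 at -0.053, Slc25a38 at -0.14 and Bcl2l1 at -0.026. Tfrc was also at -0.021 after repeated quantile normalization and at -0.0062 after cyclic loess. With an array left out, differences near 0 changed sign for Hbb-y (-0.30 to 0.094), Dmtn (-0.23 to 0.041), Tfrc (-0.0014 to 0.13), Gata1 (-0.025 to 0.094), Nfe2 (-0.010 to 0.17), Gfi1b (-0.053 to 0.12), Slc25a38 (-0.10 to 0.21) and Trim58 (-0.21 to 0.11). The cause of the changes under normalization and with an array left out was not tested. Same-numbered arrays did not deviate together (correlation of deviations of -0.00093), so the replicate numbers were not taken as pairs; with the replicate block 776 genes rose and 195 fell.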
